A study of Mus musculus with 88 samples.

Results

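Whole nucleus accumbens was sequenced from male D1-Cre mice in which an artificial activator had been directed to the Fosb gene. The comparison takes 7 libraries of M_D1-targeted animals and 4 libraries of M_D1-control animals, all of sequencing batch 1. Of the 88 labelled libraries of the series 87 have a matching column of counts, and these are 11 of those. The 11 were chosen by the group in their titles, and each library is called here by the number in its title. The targeted animals received the guide g11 to Fosb and the controls the control guide gNT. Both groups were males backcrossed to C57BL/6 and carried the D1-Cre genotype. Both also received, from Cre-dependent herpes simplex vectors, a Cas9 that binds DNA without cutting it, joined to CREB(S133D), an altered form of the transcription factor CREB. The activator and the viral infection are therefore shared by the controls, and by the labels the groups differ in the guide. Tissue was taken 6 days after surgery, and ages are not stated in the labels. The labels name no cell sorting, so D1 neurons reached by the virus were read together with all other cells of the dissected tissue.

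Fosb encodes FosB and, by alternative splicing, the truncated ΔFosB, which pair with Jun proteins to form AP-1, a factor that binds DNA at short palindromic sites. Neuronal firing induces Fosb within minutes to hours through CREB and the serum response factor, and ΔFosB, being a stable protein, builds up in accumbens neurons under repeated drug exposure or stress. The accumbens consists mostly of medium spiny neurons of a D1 type, which express the dopamine receptor gene Drd1, and a D2 type, which express Drd2. Counts were made per gene, so the FosB and ΔFosB transcripts were not told apart.

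Markers of the labelled tissue were present in every library. Ppp1r1b, the DARPP-32 gene of medium spiny neurons, lay between 197 and 500.5 CPM (counts scaled to library size) in targeted libraries and between 208 and 296 in controls. Drd1 lay between 184 and 330.3 CPM in targeted and between 203 and 252 CPM in control libraries. Total counts ran from 15030373 to 37346886 in targeted and from 17523936 to 31174664 in control libraries. Control 18383 stood apart, with 45.6% of its counts at loci that overlap ribosomal RNA and a median correlation of 0.915 with the other 10 libraries, which had 0.959 to 0.981. Control 18383 and targeted 18368 also held cortical transcripts: Slc17a7, the glutamate transporter gene of cortical neurons, was at 288 CPM in targeted 18368 and at 382 CPM in control 18383, and at 13.3 CPM or less in the other 9. Targeted 18722 was the closest of all 3741 pairs of libraries to a male library of the D1D2 arm, 18749 (r = 0.9976). Its median chi-square per gene against that library was 0.746, where sampling noise alone gives 0.455 and controls 18068 and 18069 gave 2.02. All control libraries have title numbers up to 18383, as do targeted 18130, 18366 and 18368, whereas targeted 18722, 19112, 19214 and 19507 have higher numbers. On the second principal component, which the numbers did not enter, those 4 libraries lay between 14.0 and 48.1 and the other 7 between −30.5 and −1.73. What the numbers stand for is not given in the labels. Each main result was therefore also computed with targeted 18130, 18366 and 18368 alone against the 4 controls, a setting chosen after the values were seen.

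Fosb itself was the first gene to be read. Its promoter is shown because the activator was directed to this locus. The window covers 250 bases before and 50 after the RefSeq start site, at chr7:19309996-19310295 of GRCm38.p6 on the minus strand, and capitals mark TGACG, the half-site of the CREB motif.
Fosb: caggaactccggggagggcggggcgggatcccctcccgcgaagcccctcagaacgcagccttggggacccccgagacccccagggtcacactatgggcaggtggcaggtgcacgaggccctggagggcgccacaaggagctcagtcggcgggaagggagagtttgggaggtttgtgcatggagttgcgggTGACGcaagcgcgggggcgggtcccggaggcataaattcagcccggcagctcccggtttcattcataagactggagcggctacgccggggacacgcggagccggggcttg

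The half-site begins 60 bases before the start site. The full CREB motif TGACGTCA and the AP-1 motif TGANTCA are not in this window on either strand. Over the 27025 genes with a RefSeq promoter of this length, 6228 hold TGACG, 2.03% hold TGACGTCA and 8.97% hold TGANTCA.

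Fosb was at 6.49, 5.25, 4.15, 5.75, 7.74, 7.61 and 7.07 CPM in targeted libraries 18130 to 19507, against 4.38, 5.02, 4.09 and 4.56 CPM in control libraries. Thus 6 of the 7 targeted libraries lay above every control, and targeted 18368 lay among them. Means were 6.29 ± 1.32 CPM with the Fosb guide (SD, n = 7) and 4.51 ± 0.389 CPM with the control guide (SD, n = 4). These values rest on 76 to 336 counts in targeted and 71 to 178 counts in control libraries. The log2 fold change was 0.48 (SE 0.28) in edgeR, with p = 0.0890 and 0.695 after adjustment over the 25420 genes tested. An exact permutation test over the 11 libraries gave p = 0.0364 (two-sided, difference 0.42 on the log2(CPM + 0.5) scale), where 330 splits allow a smallest p of 0.00303. Without single controls the exact permutation p lay between 0.0417 and 0.0917, and without single targeted libraries between 0.00952 and 0.0619. With targeted 18130, 18366 and 18368 alone the fold change was 0.18 (edgeR p = 0.613).

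The partners and relatives of Fosb overlapped between the guides. Fos, the classic immediate early gene, was at 11.5 to 31.0 CPM in targeted and 9.72 to 19.0 CPM in control libraries (log2 fold change 0.46, SE 0.33). Junb, a Jun partner of FosB, was at 77.0 to 120 CPM in targeted libraries. In controls it was at 48.7 CPM in 17789 and 49.5 in 18383, against 112 in 18068 and 135 in 18069, so the controls alone spanned more than the targeted group. Jund, the partner most steadily expressed in neurons, was at 0.23 (SE 0.15). Over the AP-1 family 6 of 9 genes lay above 0, beside 54.0% of all genes, and none had an edgeR p under 0.05. The family median was 0.11, but 0.02 without control 17789, 0.01 with targeted 18130, 18366 and 18368 alone, and −0.10 with surrogate variables.

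Of the 10 annotated neighbours of Fosb that were tested, 9 had a fold change above 0, beside 54.0% of all genes and 73.3% of genes with 55 to 60% GC in their exons. The neighbours had a median GC content of 57.8%. Their median (log2) was 0.29, 0.16 with offsets for GC content and transcript length, and 0.02 with targeted 18130, 18366 and 18368 alone. The DNA repair helicase gene Ercc2 had the lowest p, at 5.78 to 10.2 CPM in targeted and 5.42 to 7.39 CPM in control libraries (log2 fold change 0.38, SE 0.16, edgeR p = 0.0185, adjusted p = 0.686). With the offsets it was at 0.20 (p = 0.144). Cd3eap, an RNA polymerase I subunit gene, was at 0.38, Opa3 of the mitochondrial membrane at 0.25, the kinesin light chain gene Klc3 at 0.21 and the repair nuclease gene Ercc1 at 0.02. Vasp, an actin regulator, was at 0.46 (SE 0.49), with controls from 7.45 to 56.4 CPM around targeted values of 35.9 to 57.6. Rtn2, a reticulon, was at −0.28. None passed.

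**Figure D1:**
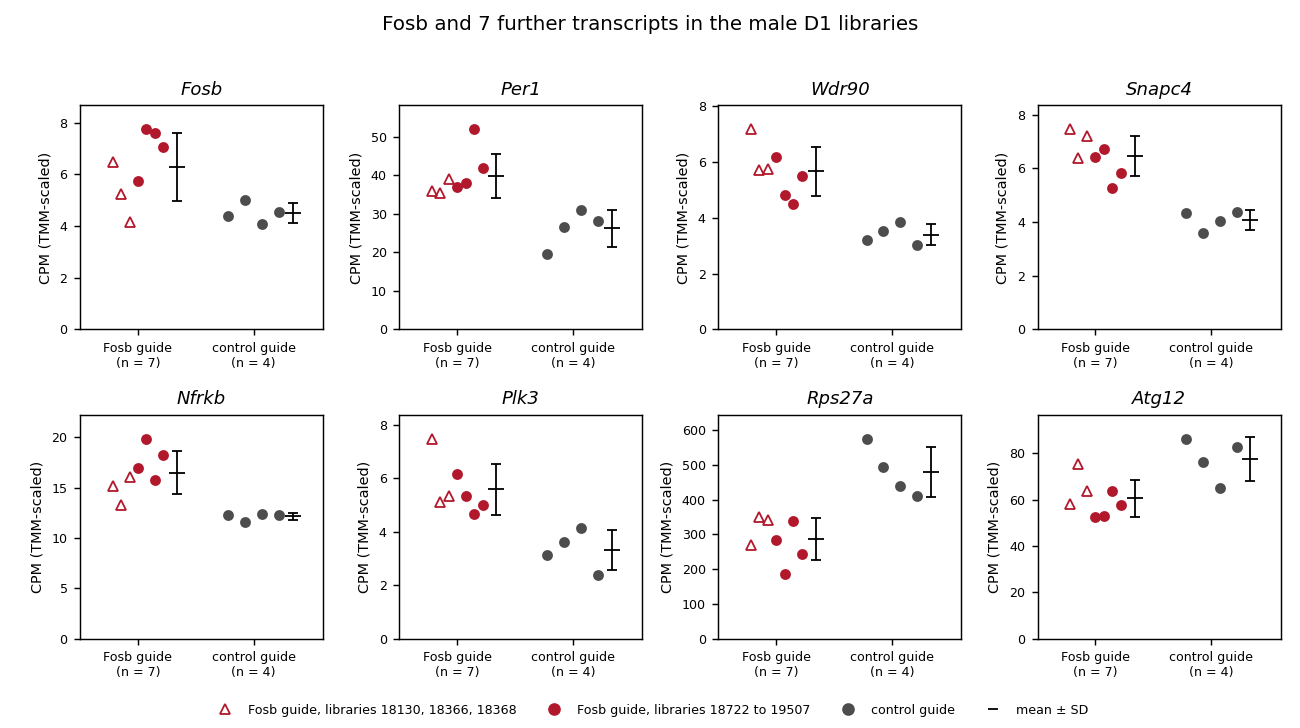
CPM of Fosb and 7 further transcripts in each male D1 library, Fosb guide on the left and control guide on the right. Bars are mean ± SD. Open triangles are targeted 18130, 18366 and 18368. Per1, Wdr90, Snapc4, Nfrkb, Plk3 and Rps27a do not overlap between the guides, while Fosb and Atg12 do.

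No gene passed the test across the transcriptome. At an adjusted p of 0.05 edgeR called 0 of 25420 genes (0.0%), with a lowest adjusted p of 0.686, and DESeq2 also called 0, while limma-voom with quality weights called 746, namely 458 higher (1.8%) and 288 lower (1.13%). Limma-voom fitted to the 11 libraries alone called 0. At an unadjusted p under 0.05 edgeR had 1807 genes (7.11%), of which 1183 were higher (4.65%) and 624 lower (2.45%). That split depended on scaling and on which libraries shared the fit. It was 845 higher and 1053 lower with DESeq2 size factors, 921 and 1129 with the DESeq2 Wald test, 946 and 759 with batch 1 alone, and 662 and 1553 with the 11 libraries alone. The median over all genes moved between 0.03 and −0.02 in these fits. In all 4 fits that leave out 1 control, 198 genes kept an unadjusted p under 0.05 as higher (0.779%) and 121 as lower (0.476%). Every targeted library lay above every control for 115 genes (0.452%) and below for 79 (0.311%). The gene lists described further on were chosen with earlier results of these data known, so their counts beside these shares are no separate result.

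The 12 higher genes described next had the smallest p among those whose unadjusted p stayed under 0.05 without each control, and none passed adjustment. Wdr90, a centriole microtubule gene on chromosome 17 (25844771 to 25861501, mm10), was at 4.50 to 7.16 CPM in targeted libraries, with a median of 5.72, against 3.19, 3.53, 3.86 and 3.02 CPM in controls. Its log2 fold change was 0.73 (SE 0.18, edgeR p = 0.000151, adjusted p = 0.686). The groups did not overlap, and with targeted 18130, 18366 and 18368 alone the fold change was 0.81. Snapc4, a subunit of the complex that binds small nuclear RNA promoters, was at 5.29 to 7.45 CPM, with a median of 6.42, in targeted libraries and at 4.34, 3.58, 4.05 and 4.37 CPM in controls. It had a log2 fold change of 0.66 (SE 0.17), and 0.72 with the 3 targeted libraries of low number. Nfrkb, a component of the INO80 chromatin remodeller, was at 13.3 to 19.9 CPM, with a median of 16.0, in targeted libraries and at 12.3, 11.6, 12.4 and 12.3 CPM in controls. Its fold change was 0.44 (SE 0.11), and 0.23 with those 3 libraries.

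Plk3, a stress-responsive polo kinase gene, was at 4.67 to 7.48 CPM, with a median of 5.32, in targeted libraries and at 3.12, 3.61, 4.14 and 2.38 CPM in controls (log2 fold change 0.75, SE 0.22). Rarg, a retinoic acid receptor gene, was at 4.47 to 6.08 CPM in targeted and 3.05 to 3.64 in control libraries (0.60, SE 0.17). Lig3, a DNA ligase gene, was at 14.6 to 20.2 CPM in targeted and 12.6 to 13.2 in control libraries (0.41, SE 0.12). Unk, an RNA-binding zinc finger gene, was at 0.64 and Ttc38, a tetratricopeptide gene, at 0.55, both with no overlap between the guides. So 8 of the 12 higher genes named had no overlap, beside 0.452% of all genes. The 12 were chosen by small p in these same libraries, so this count is no separate result. Col6a2, a collagen VI chain (1.04), Celsr1, a planar polarity cadherin (1.13), and Cxxc1, a subunit of the histone H3 lysine 4 methyltransferase complexes (0.35), overlapped with controls. The 12th, the mitochondrial mt-Nd4l, rests on targeted 18366, at 27.5 CPM, against 0.164 to 0.570 CPM in the other targeted libraries and 0.367 to 0.707 CPM in controls. Its log2 fold change was 3.13, and −0.77 without that library.

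The 12 lower genes were chosen in the same way, and none passed adjustment. Rps27a, which encodes a fusion of ubiquitin and a ribosomal protein, was at 186 to 351 CPM, with a median of 283, in targeted libraries and at 575, 495, 439 and 410 CPM in controls. The groups did not overlap, and the log2 fold change was −0.74 (SE 0.22, edgeR p = 0.00113, adjusted p = 0.686). Ribosomal protein genes have many processed pseudogenes that can share their reads. Mindy3, a deubiquitinase gene, was at 29.8 to 46.7 CPM in targeted and 47.5 to 51.7 CPM in control libraries, likewise without overlap (−0.41, SE 0.14). Atg12, whose protein is joined to Atg5 in autophagosome formation, was at 52.5 to 75.3 CPM in targeted and 64.8 to 86.2 CPM in control libraries (−0.35, SE 0.10).

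The other lower genes overlapped between the guides. They included Atp5j (−0.36) and Ndufa8 (−0.33) of oxidative phosphorylation and Mrpl46 (−0.38) of the mitochondrial ribosome. Others were the splicing regulator Tra2a (−0.34), the phosphatase gene Ptp4a1 (−0.35) and the ubiquitin ligase adaptor gene Cacybp (−0.44). The signalling adaptor gene Crk was at −0.29 and Ccdc28a at −0.43. Rnu2-10, a U2 small nuclear RNA gene, was at −4.13 (SE 1.26), with 126 and 84.7 CPM in controls 17789 and 18068. Controls 18069 and 18383 had 1.05 and 2.51 CPM, and targeted libraries 0.830 to 12.6. U2 genes share their sequence with many copies, so its reads are uncertain.

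**Figure D2:**
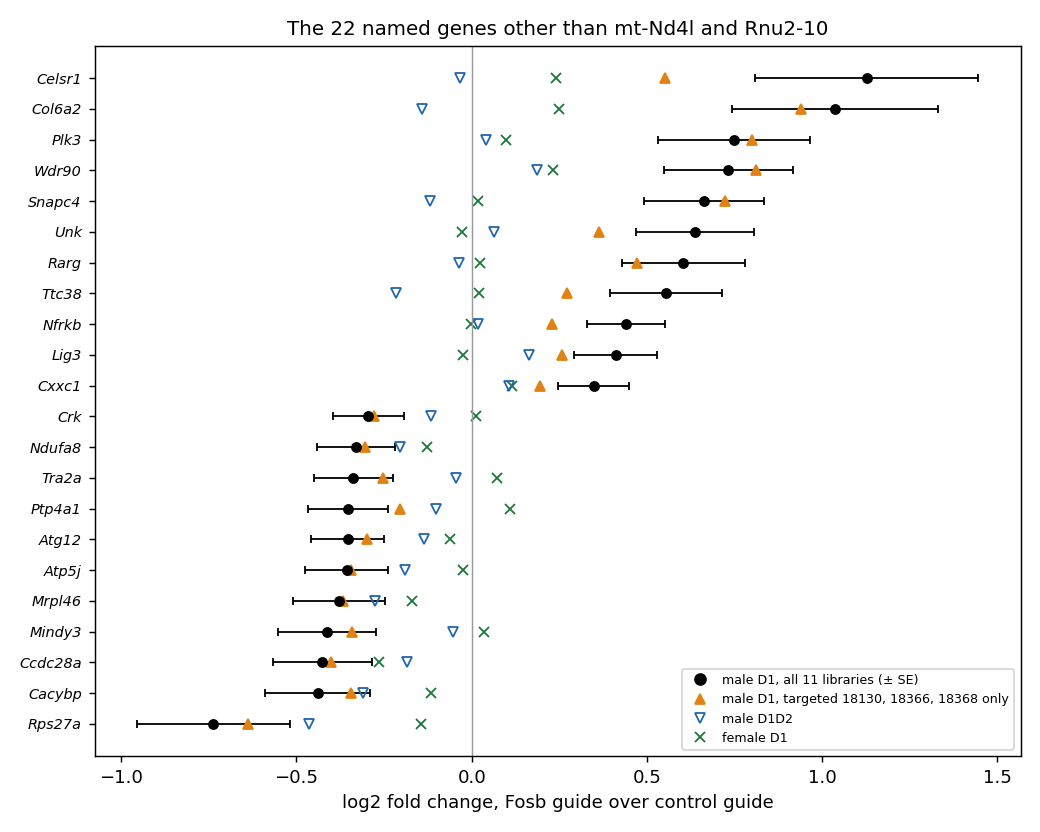
Log2 fold changes (Fosb guide over control guide) of 22 named genes, with SE bars for male D1. Triangles use targeted 18130, 18366 and 18368 alone, and inverted triangles and crosses are the male D1D2 and female D1 arms. All 22 have the same sign with those 3 libraries, which were also among the libraries used to choose the genes. All 22 lie nearer 0 in both other arms, although the genes were chosen in male D1.

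Genes that neuronal activity induces were mixed, with Per1 foremost. Per1, a clock gene that CREB also drives, was at 35.3 to 51.9 CPM, with a median of 37.9, in targeted libraries and at 19.6, 26.5, 30.9 and 28.1 CPM in controls. The groups did not overlap (log2 fold change 0.60, SE 0.19, edgeR p = 0.00236, adjusted p = 0.686), and with targeted 18130, 18366 and 18368 alone it was 0.42. The promoter of a Per1 transcript, chr11:69099902-69100201 of GRCm38.p6 on the plus strand, is given with its TGACG half-site in capitals, 132 bases before the start site, for comparison with that of Fosb.
Per1: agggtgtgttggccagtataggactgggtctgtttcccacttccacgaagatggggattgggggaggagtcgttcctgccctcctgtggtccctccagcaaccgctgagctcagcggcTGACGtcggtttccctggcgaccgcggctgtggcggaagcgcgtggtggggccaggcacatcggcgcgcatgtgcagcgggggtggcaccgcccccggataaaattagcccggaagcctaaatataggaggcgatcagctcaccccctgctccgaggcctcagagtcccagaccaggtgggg

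Neither TGACGTCA nor TGANTCA is in it. Of 20 activity-induced genes with a RefSeq promoter 75.0% hold TGACG, beside 6228 of the 27025 genes, while of the 9 higher and the 9 lower named genes with one, 2 and 5 hold it.

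Sik1, a salt-inducible kinase gene and CREB target, was at 7.77 to 14.9 CPM in targeted and 4.77 to 7.90 in control libraries (log2 fold change 0.64, SE 0.23, edgeR p = 0.00677). Arc, the synaptic capsid protein gene, was at 25.1 to 74.0 CPM in targeted and 20.9 to 37.2 in control libraries (0.74, SE 0.31). Egr2, an early growth response gene, was at 3.62 to 9.86 CPM in targeted and 2.18 to 5.86 in control libraries (0.91, SE 0.37). All 3 overlapped. Over the activity-induced list, 20 of 27 genes lay above 0, beside 54.0% of all genes above 0 and 45.9% below. At an unadjusted p under 0.05, 5 were higher and 1 lower, beside 4.65% and 2.45% of all genes. The median was 0.16, 0.02 without control 17789 and 0.32 without control 18383. Control 17789 had the lowest mean level of the list, 3.46 on the log2(CPM + 0.5) scale, where the other controls had 3.92 to 4.14 and the targeted libraries 3.90 to 4.25.

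Clock genes besides Per1 were Ciart, a repressor of the clock, at 7.09 to 16.1 CPM in targeted and 4.63 to 8.57 in control libraries (0.80, SE 0.26), Per3 (0.52, SE 0.20) and Per2 (0.55, SE 0.24). In all, 5 of 16 core clock genes were higher at p under 0.05 and 0 lower, beside 4.65% and 2.45% of all genes, with a median of 0.37. With targeted 18130, 18366 and 18368 alone that median was −0.04. The hour of dissection is not in the labels, so the circadian phase of the 2 groups cannot be compared. Of the CREB family and its coactivators Crtc3 alone of 13 had a p under 0.05 (0.44, SE 0.22), and Crem, which encodes a CREB-like modulator and the inducible repressor ICER, was at −0.40 (SE 0.28). The list median of 0.08 was 0.03 without control 18068. Of 15 genes reported as ΔFosB targets, 10 lay above 0, beside 54.0% of all genes, and none had p under 0.05. Their median was 0.16, 0.08 without control 17789 and −0.18 with targeted 18130, 18366 and 18368 alone. Among them Pdyn, the dynorphin precursor gene, was at 0.39 and the AMPA receptor gene Gria1 at 0.18, and both were below 0 with those 3 libraries (−0.40 and −0.19). Glucocorticoid-responsive genes had 1 of 14, Per1, with p under 0.05, and a median of 0.09 that was 0.01 without control 17789.

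Of 24 histone methyltransferase genes, 7 were higher and 0 lower at an unadjusted p under 0.05, beside 4.65% and 2.45% of all genes. This list and that of the remodellers were chosen with earlier results of these data known, so their counts are no separate result. Setdb1, an H3 lysine 9 methyltransferase gene, was at 24.2 to 31.1 CPM in targeted and 21.7 to 22.5 CPM in control libraries, without overlap (log2 fold change 0.29, SE 0.09). Kmt2b, an H3 lysine 4 methyltransferase gene, was at 13.8 to 19.5 CPM in targeted and 9.65 to 13.1 CPM in control libraries, also without overlap (0.61, SE 0.19). Setd1b was at 0.70 (SE 0.26) and Setd5 at 0.33 (SE 0.12). The list median was 0.17, 0.04 with offsets for GC content and transcript length, and −0.01 with targeted 18130, 18366 and 18368 alone. INO80 and SWI/SNF remodellers had 6 of 31 higher and 1 lower, with a median of 0.19 (0.10 with the offsets and −0.06 with those 3 libraries). Chd4, a remodelling ATPase gene, was at 0.57 (SE 0.23) and Smarcb1 at 0.30 (SE 0.11), and both were at −0.06 with those 3 libraries.

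Of 36 SR protein and spliceosome genes, 11 were higher and 1 lower at p under 0.05, beside 4.65% and 2.45% of all genes, with a median of 0.16 (0.10 without control 17789 and −0.01 with those 3 libraries). Sf3b1, the branch site subunit of U2 particles, was at 175 to 232 CPM in targeted and 145 to 187 CPM in control libraries (0.29, SE 0.10). Sf3a1 was at 0.48 (SE 0.16) and the helicase gene Snrnp200 at 0.45 (SE 0.17), and both were at −0.01 with those 3 libraries. The lower one was Tra2a. Of 19 genes of small nuclear RNA transcription 2 were higher, Snapc4 and the Integrator gene Ints1 (0.58, SE 0.19), beside the same 4.65%. Their median was 0.11, 0.03 without control 17789, 0.05 with the offsets and −0.10 with those 3 libraries. Of 18 cleavage and polyadenylation genes 3 were higher, among them Cpsf1 (0.38) and Sympk (0.44), and the median of 0.06 was 0.02 without control 17789 and −0.08 with those 3 libraries. Of 24 centriole and cilia genes 4 were higher, among them Wdr90, Cntrob (0.54) and Cep131 (0.54), and the median of 0.15 was 0.09 with the offsets and −0.08 with those 3 libraries. These counts stand beside the same 4.65% of all genes. The lists of this paragraph were chosen with earlier results of these data known. Snapc4, Wdr90 and Tra2a in them had already been named above for small p, so the counts are no separate result. Nuclear-retained long RNAs had 6 of 10 above 0, beside 54.0% of all genes, and none with p under 0.05. Their median of 0.10 was −0.11 without control 18068 and 0.20 without control 18383.

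Transcripts of the translation and respiratory machinery lay below 0 as groups, by small amounts. Of 78 cytosolic ribosomal protein genes 1 lay above 0, beside 54.0% of all genes, with a list median of −0.21. Only 2 of them, Rps27a and Rpl5 (−0.36, SE 0.16), had an edgeR p under 0.05, a share close to the 2.45% of all genes. The mean log2(CPM + 0.5) level of the list was 7.95 to 8.54 in targeted libraries. Controls 17789, 18068, 18069 and 18383 had 8.67, 8.61, 8.45 and 8.22, so the groups overlapped through 18069 and 18383. Of 74 nuclear oxidative phosphorylation genes 8 lay above 0 and 20 were lower at p under 0.05, beside 54.0% and 2.45% of all genes. Their median was −0.25, and −0.19 with targeted 18130, 18366 and 18368 alone. Ndufs5 of complex I was at 49.5 to 72.8 CPM in targeted and 67.8 to 80.3 CPM in control libraries (−0.38, SE 0.15). Uqcrq of complex III was at 51.4 to 69.7 CPM in targeted and 70.0 to 81.5 CPM in control libraries, with no overlap (−0.35, SE 0.14).

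The 13 transcripts of the mitochondrial genome had a median of 0.40, which was below 0 in 3 of 23 other settings (lowest −0.22). Their mean log2 level was 7.65 in targeted 18366 and 6.04 in targeted 18130. It was 5.42, 5.49, 4.89, 5.55 and 5.40 in targeted 18368 to 19507, against 5.47 to 5.92 in controls. Targeted 18366 and 18130 thus lay above every control, and targeted 18368, 19112 and 19507 below. Among these transcripts mt-Co2 of complex IV was at 150 CPM in targeted 18366. It was at 4.22 to 22.6 CPM in the other targeted libraries and at 3.52 to 9.29 CPM in controls. Against the 4.65% higher and 2.45% lower of all genes, proteasome subunits had a median of −0.08, with Psmc6 (−0.30, SE 0.14) and Psmc5 lower and Psmd3 (0.33, SE 0.17) higher among 31. Of 30 autophagy genes 4 were lower, among them Atg12 and the conjugating enzyme gene Atg3 (−0.27), and 1 higher, the lipid transfer gene Atg2a (0.62), with a median of −0.01, which was −0.07 without control 17789 and 0.03 without control 18383. Of 20 heat shock chaperone genes 4 were lower, beside 2.45% of all genes, with a median of −0.17. Hspb1, a small heat shock protein gene, was at 2.07 to 3.32 CPM in targeted and 3.57 to 8.61 CPM in control libraries, without overlap (−0.79, SE 0.26). Ahsa1, a co-chaperone gene of HSP90, was at −0.25 (SE 0.10). The chaperone median was 0.02 without control 18383.

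**Figure D3:**
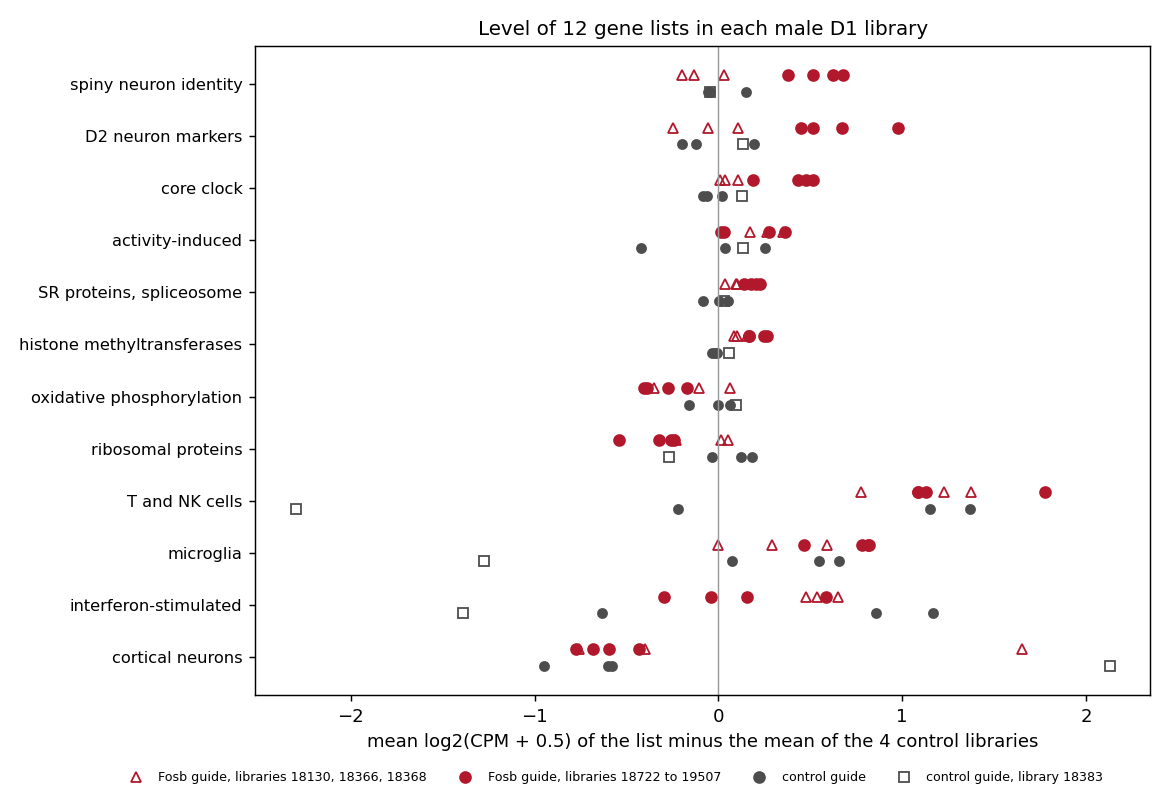
Mean log2(CPM + 0.5) level of 12 gene lists in each library, minus the mean of the 4 controls. Each list has the 7 targeted libraries above and the 4 controls below. Spiny neuron, D2 and clock lists are highest in targeted 18722, 19112, 19214 and 19507, T and NK cell, microglial and interferon-stimulated lists are lowest in control 18383, and cortical transcripts are high in targeted 18368 and control 18383.

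Transcripts of medium spiny neurons varied within the targeted group. Over 16 identity genes the mean log2(CPM + 0.5) level was 6.64, 6.89, 6.78 and 6.95 in targeted 18722, 19112, 19214 and 19507. It was 6.07, 6.30 and 6.13 in targeted 18130, 18366 and 18368, and 6.22, 6.42, 6.21 and 6.22 in controls. The log2 fold changes of 15 of the 16 genes lay above 0, beside 54.0% of all genes, with a median of 0.38. That median was −0.20 with targeted 18130, 18366 and 18368 alone. Dlx5, a homeobox gene of striatal neurons, was the 1 gene of 16 with p under 0.05 (0.59, SE 0.29), where 4.65% of all genes were higher. In bulk tissue fewer cells of a type and less RNA per cell cannot be told apart.

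Markers of both spiny neuron types had medians above 0. The vectors were Cre-dependent in D1-Cre mice, the labels name no cell sorting, and the cause was not tested. Drd2 was at 66.4, 87.7, 53.0 and 65.0 CPM in targeted 18722 to 19507, at 29.7, 32.7 and 25.9 CPM in targeted 18130, 18366 and 18368, and at 29.3 to 37.1 CPM in controls (log2 fold change 0.67, SE 0.35, edgeR p = 0.0583). Chrm4, a muscarinic receptor gene of D1 cells, was at 26.3 to 36.3 CPM in the first 4, at 17.0 to 18.0 CPM in the other 3 and at 14.0 to 21.3 CPM in controls (0.64, SE 0.26, p = 0.0171). D2 markers had a median of 0.33, with 9 of 9 above 0, and D1 markers 0.14, with 8 of 12 above 0, beside 54.0% of all genes. With targeted 18130, 18366 and 18368 alone both medians were −0.16. Ttc12, which lies beside Drd2, was at 10.95 CPM in targeted 18722 and 17.4 CPM in targeted 19112, at 3.16 to 4.38 CPM in the other 5 targeted libraries and at 2.25 to 4.15 CPM in controls. Its log2 fold change of 0.97 (SE 0.36) was 0.52 without targeted 19112 (edgeR p = 0.124) and −0.05 with those 3 libraries. Cholinergic interneuron genes, all 8 of which lay above 0 beside the same 54.0%, had a median of 0.46, and −0.15 with those 3.

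Signalling and synaptic lists had few genes at p under 0.05, where 4.65% of all genes were higher and 2.45% lower, and their medians moved with single controls. Of 27 cAMP and G protein genes the adenylyl cyclase gene Adcy3 was the 1 (0.38, SE 0.19), with a list median of 0.13 (0.08 without control 18068 and 0.22 without control 18383). Of 25 sodium and calcium channel genes 3 were higher, foremost Cacna1h, a T-type calcium channel gene, at 23.2 to 44.3 CPM in targeted and 19.2 to 28.4 CPM in control libraries (0.52, SE 0.20). Their median was 0.18, 0.36 without control 18383 and 0.09 without control 18069. Potassium channel genes had 1 of 25 and a median of 0.23, which was 0.34 without control 18383 and 0.12 without control 18069. The kainate receptor gene Grik5 was the 1 of 22 glutamate receptor genes (0.55, SE 0.24), and the list median of 0.03 was below 0 in 12 of 23 other settings (−0.03 with DESeq2 size factors). Nlgn2, a neuroligin gene of inhibitory synapses that stood in the list of excitatory synapse scaffolds, was the 1 of 21 there (0.46, SE 0.23), and the list median of 0.24 was 0.42 without control 18383 and 0.13 without control 18069. GABA-A receptor genes had none of 14 and a median of −0.20, which was −0.01 without control 18383, −0.05 without control 17789 and 0.09 in limma-voom with quality weights. Release machinery genes had none of 26, and their median of 0.06 was 0.41 without control 18383 and −0.08 without control 18069. Of 18 neuropeptide genes Vgf was the 1 (0.49, SE 0.23), and the median of −0.23 was 0.09 without control 18383 and 0.04 without control 17789. With targeted 18130, 18366 and 18368 alone the median was −0.18 for cAMP and G protein genes, −0.08 for sodium and calcium channels and 0.01 for potassium channels. It was −0.21 for glutamate receptors, −0.18 for excitatory scaffolds, −0.25 for GABA-A receptors, −0.17 for release machinery and −0.35 for neuropeptides.

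Immune and glial transcripts varied widely among the controls. Over 30 T and NK cell genes the mean log2(CPM + 0.5) level was 3.47 to 4.47 in targeted libraries. Controls had 2.47 in 17789, 3.85 in 18068, 4.06 in 18069 and 0.397 in 18383. The median log2 fold change was 0.77 with 29 of 30 above 0, beside 54.0% of all genes. That median was 0.39 without control 18383 and 1.18 without control 18069. Cd4, the coreceptor gene of helper T cells that microglia also express, was the 1 of 30 with p under 0.05 (0.87, SE 0.38). Of all genes 4.65% were higher at that threshold. Cxcr3, a chemokine receptor gene of activated T cells, was at 4.43 to 9.76 CPM in targeted libraries and at 1.36, 4.31, 4.19 and 0.129 CPM in controls, without overlap but with little room to 2 of them (1.47, SE 0.81). Gzmk, a granzyme gene, was at 9.84 to 16.5 CPM in targeted libraries and at 3.73, 9.36, 9.81 and 0.835 CPM in controls (1.00, SE 0.60).

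The interferon-stimulated list had levels of 5.12 to 6.06 in targeted libraries and of 4.78, 6.27, 6.58 and 4.03 in controls, and no gene of 30 had p under 0.05. The median fold change of −0.03 was −0.26 without control 17789, 0.21 without 18068, 0.37 without 18069 and −0.33 without 18383. Class I antigen presentation genes had a median of 0.27, which was −0.05 without control 18383 and 0.67 without control 18069. Class II genes had 0.35, which was −0.00 without 18383 and 0.70 without 18069. For interferon gamma GTPases the median of 0.10 was −0.27 without 18383 and 0.57 without 18069. For chemokines 0.22 was −0.08 without 18383 and 0.46 without 18068, and for B and plasma cell genes 0.26 was −0.09 without 18383 and 0.69 without 18068. For reactive astrocyte genes 0.35 was −0.03 without 18383 and 0.73 without 18069, and for endothelial and pericyte genes 0.14 was −0.09 without 18383 and 0.19 without 18068. Microglial genes had a median of 0.32, 0.03 without control 18383 and 0.53 without control 18068, with Cx3cr1, the fractalkine receptor gene, at 56.4 to 135 CPM in targeted and 41.2 to 75.2 CPM in control libraries (0.54, SE 0.23). Complement genes had a median of 0.53, 0.19 without control 18383 and 0.93 without control 18069, with C4b at 0.96 (SE 0.48). Proliferation genes had 18 of 18 above 0, beside 54.0% of all genes, and none had p under 0.05. Their median was 0.46, 0.19 without control 18383 and 0.82 without control 18069.

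Among glia, 3 of 11 oligodendrocyte precursor genes were higher at p under 0.05, beside 4.65% of all genes, namely Cspg4 (0.74, SE 0.28), the growth factor receptor gene Pdgfra (0.46, SE 0.19) and the lineage factor gene Sox10 (0.70, SE 0.31). Their list median of 0.29 was 0.08 with targeted 18130, 18366 and 18368 alone. Homeostatic astrocyte genes had a median of 0.11, with the glutamate transporter gene Slc1a3 at 0.65 (SE 0.26) and S100b at −0.45 (SE 0.21). Myelin genes had a median of −0.02, which was 0.18 without control 17789 and −0.18 without control 18383. Choroid plexus, ependyma and meninges genes had a median of 0.20, with the meningeal collagen gene Col1a2 at 0.84 (SE 0.32). The choroid plexus transcript Ttr was at 4.10 CPM or less in every library. The 5 erythrocyte genes all lay below 0 (median −0.44), beside 45.9% of all genes. Septal and pallidal genes had a median of 0.18, which was −0.04 without control 18068, and GABAergic interneuron genes one of 0.22, which was 0.13 without it. Cortical genes had a median of −0.59, which was 0.92 without control 18383 and 0.07 without both libraries with cortical transcripts.

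**Figure D4:**
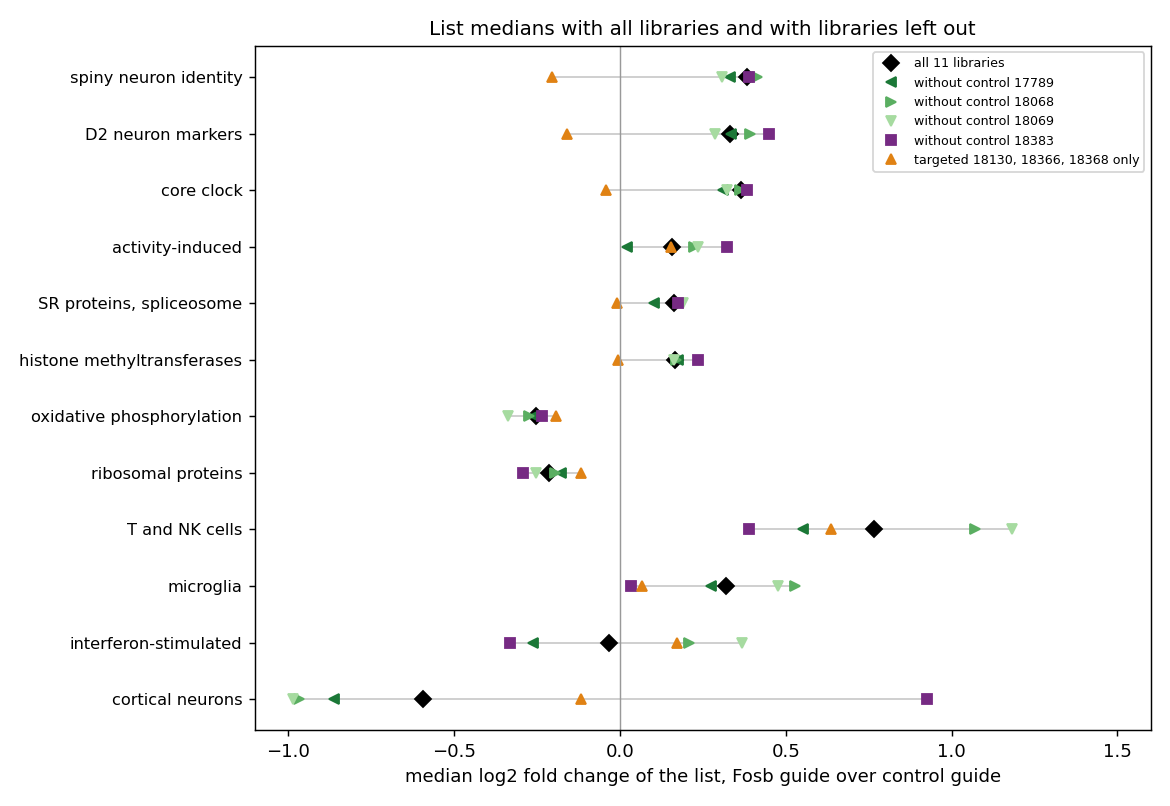
Median log2 fold change (Fosb guide over control guide) of the same 12 lists with all 11 libraries, without each control, and with targeted 18130, 18366 and 18368 alone. Oxidative phosphorylation and ribosomal protein medians are below 0 throughout, spiny neuron, D2 and clock medians are below 0 with the 3 targeted libraries, the T and NK cell median runs from 0.39 without control 18383 to 1.18 without control 18069, and the cortical median is above 0 without control 18383.

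Fold changes ran with the base composition and length of transcripts. Over 17222 genes of at least 1 CPM, Spearman's rho of the log2 fold change was 0.343 with exon GC content and 0.214 with exon length, across genes, which share the same 11 libraries. The median was −0.12 for genes of up to 40% GC and 0.18 for those above 60%. The 149 higher genes of at least 1 CPM that held without each control had a median GC content of 56.4% and a median length of 6544 bases, the 106 lower ones 45.5% and 2875 bases, and all genes 49.5% and 3982 bases. With targeted 18130, 18366 and 18368 alone rho was 0.126 for GC. In the female D1 arm it was −0.05 and in the male D1D2 arm 0.128. For exon length rho was 0.180 in the female D1 arm and 0.117 in the male D1D2 arm, so this trend was seen in all 3 arms. With offsets for GC content and length, 118 of the 149 and 78 of the 106 kept p under 0.05 with the same sign, beside 801 of all 17222 genes. They had been chosen by p on the same counts, so this is no separate test. Fosb was at 0.29 with the offsets. With those 3 libraries 135 of 149 and 106 of 106 had the same sign, beside 11859 of all 17222 genes. Of them 16 and 38 kept p under 0.05, beside 298 of all 17222 genes. The genes were chosen in fits that hold these same libraries and controls, so the shared sign is no separate test. All 12 higher and all 12 lower named genes kept an unadjusted p under 0.05 with the offsets, and the lowest adjusted p among them was 0.909. With the offsets Wdr90 was at 0.53 (unadjusted p = 0.0214), Nfrkb at 0.26 (p = 0.0234) and Cxxc1 at 0.18 (p = 0.0457).

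**Figure D5:**
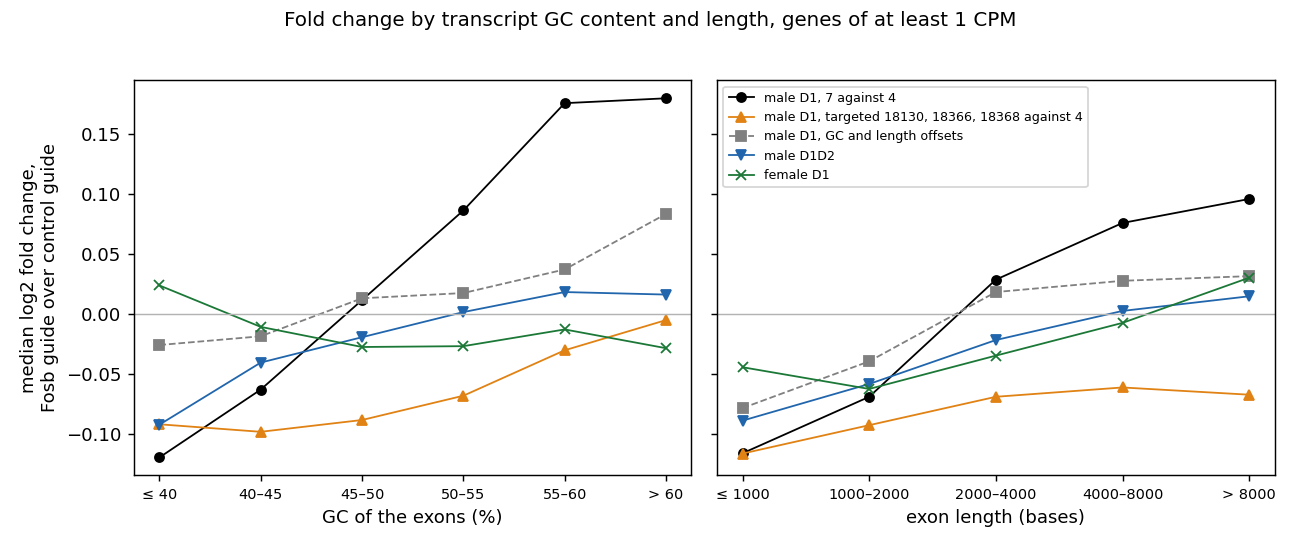
Median log2 fold change (Fosb guide over control guide) in bins of exon GC content (left) and exon length (right), over genes of at least 1 CPM. The male D1 line runs from −0.12 to 0.18 with GC, and the lines with 3 targeted libraries, with offsets and of the other arms are flatter.

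The effect in male D1 mice was set against that in 2 other arms, which share no library with it: female D1 mice, with the same Cre-dependent vectors (6 targeted and 8 control libraries), and male D1D2 mice, with vectors that do not need Cre (4 and 7). Fosb was at 0.41 in female D1 and 0.60 in male D1D2 mice, and its difference from male D1 had an unadjusted edgeR p of 0.841 for the first and 0.763 for the second. Of 25420 genes the difference from female D1 passed for 1 (0.00393%) and that from male D1D2 for 2 (0.00787%), all described with the outlying values further on. Nfrkb was at −0.00 and Snapc4 at 0.02 in female D1 mice. Their differences had unadjusted edgeR p of 0.00348 and 0.00483, and neither passed adjustment. Both genes had been chosen for small p in male D1 mice, so these p-values are no separate test. The 149 higher genes had a median of 0.06 in female D1 and 0.08 in male D1D2 mice, and the 106 lower genes −0.09 and −0.18. Since those genes were chosen in male D1 mice, their larger values there are no test of a difference. The activity-induced median was 0.16 in male D1, 0.20 in female D1 and 0.25 in male D1D2 mice. In the same order the oxidative phosphorylation median was −0.25, −0.13 and −0.19, and the core clock median 0.37, 0.08 and 0.01. The spiny neuron identity median was 0.38, −0.15 and 0.19. Differences of list medians between arms were not tested.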

How the data were processed

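Total RNA of nucleus accumbens was ribo-depleted and sequenced. The authors deposited raw counts per gene in 1 table, which were used as deposited. Per the submitters' processing notes, Trim Galore, HISAT2, SAMtools, featureCounts of Subread and DESeq2 1.27 were used with mm10. Neither the annotation nor the strand setting of the counting is stated there. The table has 88 columns. 1 column matched no label and was not used, and 1 labelled library had no column.

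From the counts, edgeR 4.0.16 (R 4.3.3) fitted 12 groups and sequencing batch over 87 libraries with TMM scaling, filterByExpr and robust quasi-likelihood, and Benjamini-Hochberg adjustment over 25420 genes at a threshold of 0.05. CPM are TMM-scaled, and list levels are means of log2(CPM + 0.5). Alternatives used limma 3.58.1, DESeq2 1.42.0 and sva 3.50.0 with 3 surrogate variables. The fitting was tested on simulated data. Symbols and positions came from GENCODE M21, which matched 55394 of 55487 identifiers. Promoters came from RefSeq (GRCm38.p6).

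Besides Fosb and its neighbours, 12 genes were named in each direction, by smallest p among those of at least 1 CPM with p under 0.05 in every fit leaving out 1 control, and up to 4 genes of each of 52 lists. The members and lists were chosen with earlier results of these data known. The labels do not say that libraries come from separate animals, so p-values measure the spread between these libraries.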

Additional observations from a re-analysis of the deposited data

Results flagged for a closer look

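Among 154 groups of values examined, 11 had a highest or lowest library far from the others, where chance alone would give 7.7. For genes these were mt-Nd4l in targeted 18366 (27.5 CPM, next 0.570), Celsr1 in targeted 19112 (12.7 CPM, next 6.97), Rnu2-10 in targeted 19507 (12.6 CPM, next 2.84), Ccdc28a in targeted 18366 (11.2 CPM, next 9.13), Col6a2 in control 18383 (4.63 CPM, next 3.10) and Ndufa8, low in control 18069 (74.6 CPM, next 84.6). For mean log2(CPM + 0.5) levels of lists they were mitochondrial genome transcripts in targeted 18366 (7.65, next 6.04), cortical genes in targeted 18368 (3.91, next 1.86) and in control 18383 (4.38, next 1.67), medium spiny neuron identity in control 18068 (6.42, next 6.22) and cAMP signalling in control 18383 (7.0, next 6.71).

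The difference between arms passed for 1700057H15Rik on chromosome 4 (124414416 to 124485959, mm10), a transcript near 0 in most libraries. Its log2 fold change in male D1 minus that in female D1 mice was −7.50 (edgeR adjusted p = 0.00210), and minus that in male D1D2 mice −8.26 (edgeR adjusted p = 0.000347). Male D1 targeted libraries had at most 0.209 CPM, control 18383 had 6.75 and the other 3 controls had at most 0.251. The female D1 targeted libraries had a median of 0.0652 and a highest value of 3.96 CPM, and the male D1D2 targeted libraries a median of 0.0319 and a highest value of 4.95 CPM. Neither difference passed without control 18383. For Gm23935 on chromosome 16 (11144125 to 11144181) the difference from male D1D2 mice was −4.78 (SE 0.95, edgeR adjusted p = 0.0411), and 1 targeted library of that arm had 173648 CPM.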

How the results depend on the processing

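No gene passed in edgeR with DESeq2 size factors, without the low-count filter, with batch 1 or the 11 libraries alone, with 3 surrogate variables, with offsets or without any single library. Targeted 18130, 18366 and 18368 alone gave 1 call, mt-Nd4l, and limma-voom with quality weights 746. Genes at an unadjusted p under 0.05, 1807 in all, numbered 716 with those 3 libraries, 1166 with GC and length offsets, 2785 without the filter, 5579 in limma-voom with quality weights and 5941 in limma-voom on the 11 libraries. Leaving out single libraries gave 943 (without targeted 19112) to 2892 (without targeted 18366), and 1112 without control 17789. The higher and lower genes were 732 and 890 without control 18068, 1152 and 1318 without control 18069, 595 and 517 without control 17789, 702 and 464 with offsets, 380 and 336 with the 3 targeted libraries, 1561 and 1224 without the filter, and 802 and 703 without the near-identical pair.

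The 1 difference from female D1 became 0 with the 3 targeted libraries, in limma-voom with quality weights and without the libraries with cortical transcripts, and ranged from 0 (without control 18383) to 1 without single libraries. The 2 differences from male D1D2 became 1 with surrogate variables, with batch 1 alone, without the filter and without the near-identical pair. They became 0 with the 3 targeted libraries, in limma-voom with quality weights and without the libraries with cortical transcripts, and ranged from 0 (without control 18383) to 2 without single libraries. Fosb lay above 0 in every setting run.

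Ercc1, at 0.02, was −0.035 with the 11 libraries alone, −4.0e-05 with surrogate variables, −0.089 with the 3 targeted libraries, −0.033 with DESeq2 and −0.031 with its size factors, −0.098 with offsets, −0.0012 with batch 1 alone, −0.11 in limma-voom on the 11 libraries and −0.053 in limma-voom with quality weights, and −0.067 (without control 17789) to 0.060 (without control 18069) without single libraries. mt-Nd4l was −0.32 in limma-voom on the 11 libraries, −0.27 in limma-voom with quality weights, and −0.77 (without targeted 18366) to 3.35 (without targeted 19214) without single libraries. Junb was −0.062 in limma-voom on the 11 libraries. With the 3 targeted libraries Cd3eap was −0.023, Opa3 −0.12, Klc3 −0.077, Pdyn −0.40, Gria1 −0.19, Chrm4 −0.028, Ttc12 −0.055, Drd2 −0.20, Adcy3 −0.022, Chd4 −0.058, Smarcb1 −0.057, Sympk −0.018, Sf3a1 −0.011, Snrnp200 −0.0073 and Psmd3 −0.085. The cause was not tested.

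Of 52 list medians 14 kept their sign in all 23 settings. The settings with 3 targeted libraries, without the near-identical pair, without the libraries with cortical transcripts, with offsets and with limma-voom on the 11 libraries were chosen after seeing the data. No paired analysis was possible because the title numbers are unique to each library and the groups share none. With 4 controls, 1 of which stands apart, fold changes rest on few libraries, and Fosb on 71 to 336 counts each.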
